A study of Homo sapiens with 10 samples.

Results

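The transcriptome described here is that of BEAS-2B cells in the long RNA libraries labelled TAF1C, which are 3 of the 10 samples of the study. They are all long RNA libraries with the treatment TAF1C in their labels, and no empty vector library. The choice of this group was made with earlier results of these data known. BEAS-2B is a line of human bronchial epithelial cells immortalised with a hybrid of adenovirus and SV40 virus, whose large T antigen binds RB and other tumour suppressor proteins. Stable cells carried a TAF1C vector driven by the pCMV6 promoter and were kept in LHC9 medium with 10% fetal bovine serum under G418 selection, as the labels give for every group. The other long RNA group, 2 libraries of stable cells with the empty vector, enters only the check of the label. The 5 small RNA libraries, 2 with the empty vector and 3 with TAF1C, are not analysed here. Neither the origin of the 3 replicates (separate cultures or not) nor that of the stable cells (1 clone or a pool) is stated, so their spread may be technical.

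Bronchial epithelium is made of basal cells, which hold keratins KRT5 and KRT14 and the factor TP63, and of the ciliated and secretory cells that arise from them. Cultured lines can lose part of that programme, and serum is known to favour flat, matrix-producing cells. The TAF1C protein belongs to SL1, which recruits RNA polymerase I to ribosomal RNA genes. Total RNA depleted of ribosomal RNA keeps transcripts with no poly(A) tail, such as histone mRNAs and the short RNAs of RNA polymerase III, which selection for poly(A) would lose.

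The tables held counts for 57773 Ensembl genes under 55771 symbols, and summed to 37533366, 36481548 and 34212883 counts in libraries 1, 2 and 3. The unit CPM is a count divided by the library total and multiplied by 1000000, so 1 CPM stood for between 34.2 and 37.5 counts. A count of 0 allows a level of up to 0.0799, 0.0822 and 0.0877 CPM in the 3 libraries, taken as 3 counts and covering counting error only. CPM is not divided by transcript length, so it gives the share of the counts a gene took, and the order of genes by CPM is no order of molecules.

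The targeted gene went against the label. TAF1C (ENSG00000103168) stood at 59.8, 55.0 and 63.4 CPM in the libraries labelled TAF1C, and the empty vector libraries had 76.0 and 76.8 CPM, so the groups did not overlap and the labelled libraries were the lower ones. With TMM factors, which scale for composition, the values were 65.1, 60.8 and 68.0 CPM against 55.2 and 81.9 CPM, and the groups overlapped. No source used here says if vector transcripts count toward it. The libraries are named by their label throughout.

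Of the 55771 symbols, 14634 reached at least 1 CPM in all 3 libraries, and these are termed expressed here. They held 99.2% of the counts. Among them, 12455 were protein coding, out of 20200 protein coding symbols, or 61.7%. Higher levels were rarer: 9183 symbols reached 10 CPM in every library, 2027 reached 100 CPM and 65 reached 1000 CPM. A further 2194 symbols reached 1 CPM in some libraries only, and 8213 had no count in any library. The median of all protein coding symbols was 5.29 CPM. This level and the 61.7% expressed are the values to hold the groups of coding genes below against.

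Counts were concentrated in few symbols. The 5 symbols with most counts held 10.5% ± 0.271 (SD, n = 3), the first 100 held 24.6% ± 0.164 (SD, n = 3), and the first 1000 held 53.2% ± 0.0768 (SD, n = 3). It took 831 symbols to reach 50% of the counts, or 825, 832 and 834 when counted in each library. Another 25% of the counts lay in the symbols up to rank 2935, and 99% in the first 13109.

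**Figure D1:**
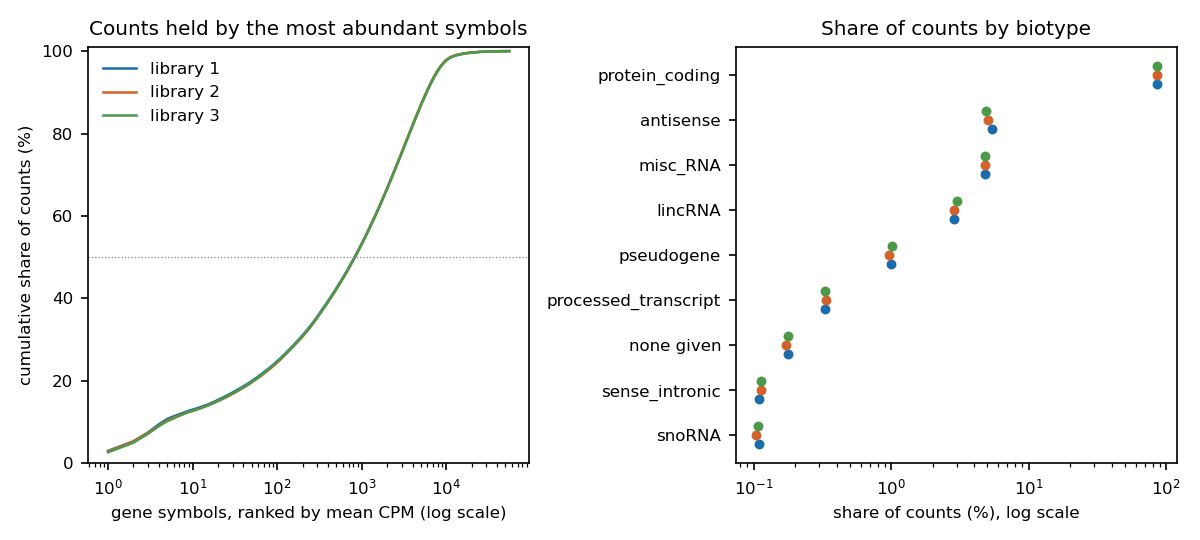
Left, cumulative share of counts (%) against gene symbols ranked by mean CPM (log scale), a line per library. The 3 lines lie on each other and cross 50% at about 831 symbols. Right, share of counts (%, log scale) in each library for the 9 leading biotypes of the deposited table, where protein coding symbols hold 85.3%.

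Protein coding symbols held 85.1%, 85.5% and 85.4% of the counts. The next shares were those of symbols listed as antisense, at 5.37%, 5.04% and 4.90%, and of symbols listed as misc_RNA, at 4.82%, 4.77% and 4.85%. The antisense share is a matter of labels: RN7SL1 and RPPH1 carry that biotype in the table, and without them it was 0.403% ± 0.00432 (SD, n = 3). Symbols listed as lincRNA (long intergenic RNA) held 2.92% ± 0.0943 (SD, n = 3). This share too depends on labels: RMRP made up 42.2% of it and the snoRNA SNORD3A 18.4%, both described below. Pseudogenes held 0.991% ± 0.0195 (SD, n = 3) and processed transcripts 0.332% ± 0.000535 (SD, n = 3). The 520 symbols of the rRNA biotype held 0.00261%, in libraries that had been depleted of ribosomal RNA.

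The 5 symbols above 10000 CPM were all short RNAs made by RNA polymerase III. RN7SL1, an RNA of the signal recognition particle, which guides secreted proteins to the endoplasmic reticulum, stood at 30384, 29087 and 26798 CPM. Its near-identical copy RN7SL2 stood at 23327, 24051 and 23475 CPM. The table holds 848 RN7SL symbols with 5.48% of the counts in all, and the handling of reads that fit several of them is not known, so the split between them is uncertain. RN7SK, which holds the elongation kinase P-TEFb inactive, stood at 21840, 21174 and 22092 CPM. RPPH1, the RNA of RNase P, which trims transfer RNAs, stood at 19348, 17298 and 18158 CPM. RMRP, the RNA of RNase MRP, which cuts ribosomal RNA precursors, stood at 12757, 12404 and 11842 CPM. These 5 values differed between libraries by at most 1.13-fold. Below them came further copies of 7SL RNA, RN7SL3 with a mean of 1018 CPM and RN7SL5P with 912 CPM. The vault and Y RNAs took few counts: VTRNA1-3, a vault RNA, had a mean of 4.51 CPM, and RNY1, a Y RNA, 2.73 CPM. RNY5 stood at 0.0266, 0.0548 and 0.117 CPM.

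Nucleolar and nuclear RNAs followed. SNORD3A, the U3 snoRNA that works in ribosomal RNA processing, stood at 4887, 4483 and 6728 CPM, with library 3 above the others. MALAT1, a nuclear RNA of splicing speckles, stood at 4412, 5113 and 4727 CPM. NEAT1, the scaffold of paraspeckles, stood at 1119, 1179 and 1207 CPM. H19, an imprinted RNA, was at 392, 326 and 366 CPM, and the snoRNA host genes were all expressed, 17 of 17, led by SNHG3 at 379, 317 and 349 CPM. Of the 21 long noncoding RNAs examined, 20 were expressed, and HOTAIR was under 1 CPM in each library (0.400, 0.164 and 0.438 CPM). Over all symbols listed as lincRNA, antisense and processed transcript, 5.98%, 11.1% and 24.7% were expressed. The 21 RNAs and the 17 host genes are chosen lists, so their counts are no measure of noncoding RNAs at large. The pseudogenes with most counts, RPS2P5 with a mean of 487 CPM and EEF1A1P5 with 398 CPM, are copies of abundant coding genes, and reads of the parent genes cannot be told apart from theirs.

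Among coding genes, those of translation took the most counts. EEF1A1, the elongation factor that brings transfer RNA to the ribosome, stood at 6676, 7333 and 6846 CPM. EEF2, the factor that moves the ribosome along, stood at 3926, 3649 and 3939 CPM. RPS3, a protein of the small ribosomal subunit, stood at 2773, 2747 and 2828 CPM. Of the 20 coding genes with most counts, 7 encode ribosomal proteins, and of the first 100, 39 do. The others of the 20 belong to the cytoskeleton (ACTB, MYH9, ACTG1), to protein folding (HSPA8, HSP90AA1), to the matrix (FN1, TGFBI) and to glycolysis (ENO1), besides PRKDC, the DNA repair kinase, the large scaffold protein AHNAK, and GNB2L1, a ribosome-bound protein now named RACK1.

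**Figure D2:**
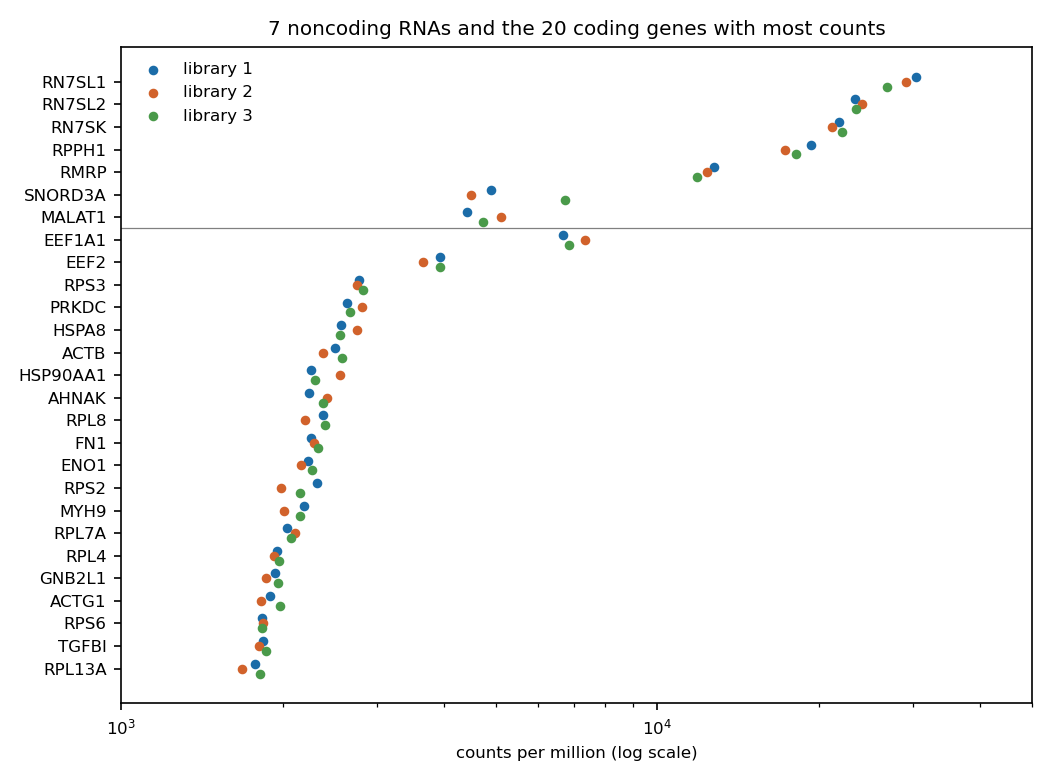
CPM (log scale) in each of the 3 libraries, a point per library, for 7 noncoding RNAs (above the line) and the 20 coding genes with most counts. RN7SL1 leads at 26798 to 30384 CPM, and the coding genes run from EEF1A1 at 6676 to 7333 CPM down to RPL13A.

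The start sites of these genes are shown for what they share. Messages of the translation machinery are known to begin with a run of pyrimidines (C or T), through which growth signals set their translation. RefSeq promoters (GRCh38.p14) were matched for 16 of the 20 coding genes, and ACTB, PRKDC, RPL8 and RPS2 had no entry. On the strand of the gene, 8 of the 16 had a run of at least 8 pyrimidines that reached within 15 bases of the annotated start: EEF1A1, EEF2, RPS3, RPL7A, RPL4, GNB2L1, RPS6 and RPL13A, with runs of 9 to 25 bases. In the other 8, HSPA8, HSP90AA1, AHNAK, FN1, ENO1, MYH9, ACTG1 and TGFBI, the longest run was 3 to 7 bases. Of all 27305 promoters in the table, 18.7% had such a run, and the median longest run was 5 bases. The windows below run from 60 bases before the annotated start to 20 after it, 5′ to 3′, with the longest run near the start in capitals, for 5 genes of translation and for 2 genes of other kinds.
EEF1A1, chr6:73521013-73521092, minus strand: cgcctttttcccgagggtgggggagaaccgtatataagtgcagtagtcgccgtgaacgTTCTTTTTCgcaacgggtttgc
EEF2, chr19:3985444-3985523, minus strand: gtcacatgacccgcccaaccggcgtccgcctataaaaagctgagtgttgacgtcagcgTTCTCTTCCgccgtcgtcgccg
RPS3, chr11:75399458-75399537, plus strand: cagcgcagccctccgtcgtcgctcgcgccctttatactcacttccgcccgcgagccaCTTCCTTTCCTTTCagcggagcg
RPL7A, chr9:133348158-133348237, plus strand: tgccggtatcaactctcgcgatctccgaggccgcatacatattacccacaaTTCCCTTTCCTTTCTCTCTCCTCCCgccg
RPL4, chr15:66504836-66504915, minus strand: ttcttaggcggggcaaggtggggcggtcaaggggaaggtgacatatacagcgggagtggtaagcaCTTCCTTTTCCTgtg
HSPA8, chr11:123062117-123062196, minus strand: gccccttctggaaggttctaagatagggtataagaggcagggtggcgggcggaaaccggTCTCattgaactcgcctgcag
FN1, chr2:215436049-215436128, minus strand: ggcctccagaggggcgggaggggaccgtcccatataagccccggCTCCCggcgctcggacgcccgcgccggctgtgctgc
These runs are descriptions of the sequence. No measure of translation was made, and a check over all ribosomal protein genes is void, since 63 of 79, or 79.7%, had a promoter in the table, under the 80% set as the minimum.

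Ribosomal protein genes held 6.68% ± 0.0362 (SD, n = 3) of the counts. All 47 genes of the large subunit were expressed, with a median of 840 CPM, and 31 of the 32 of the small subunit, with a median of 639 CPM. Their median coefficient of variation (CV, the SD over the mean) across the libraries was 3.26% and 3.75%, near the 3.40% of all symbols between 500 and 1000 CPM. RPS18 had no count in any library while RPS18P12, a pseudogene copy, had 316, 308 and 289 CPM, and RPS10, RPL17 and RPL36A lay under 20 CPM. Ribosomal protein genes have many near-identical copies, so a low value for a member is uncertain. RPS18 also lies in the chromosome 6 stretch described below, where most coding genes were listed at 0. The cause of its 0 was not tested. Of the 16 elongation and initiation factors, 15 were expressed, among them EIF4G2 with a mean of 853 CPM and PABPC1, the poly(A)-binding protein, with 749 CPM. EEF1G was listed at 0 in every library, and the cause of this was not tested.

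Histone genes copied during DNA replication, whose mRNAs mostly lack a poly(A) tail, were among the abundant genes. The 71 coding symbols named HIST held 2.32% ± 0.0543 (SD, n = 3) of the counts, and 63 of them were expressed. The 22 on the list drawn up for this group were all above 100 CPM, with a median of 540 CPM. HIST1H1E, a linker histone, stood at 1433, 1256 and 1362 CPM. HIST1H1B, another linker histone, stood at 1365, 1273 and 1357 CPM, and HIST1H3B, a core histone, at 1075, 1008 and 1006 CPM. Library 2 was the lowest for 16 of the 22, beside 3410 of the 9396 symbols with a mean of at least 10 CPM. The promoter of HIST1H1E is shown because it holds TATAAA (capitals), 29 bases before the start. TATAAA occurs on either strand in 3264 of the 27305 promoters of 250 bases before to 50 after the start, and fewer than 80% of the histone genes had a promoter in the table, so no share is given for them.
HIST1H1E (H1-4), chr6:26156269-26156348, plus strand: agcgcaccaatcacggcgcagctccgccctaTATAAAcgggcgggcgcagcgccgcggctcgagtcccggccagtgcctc

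Transcripts of the mitochondrial genome took few counts. The 13 mRNAs, which encode subunits of the respiratory chain, held 0.0532%, 0.0322% and 0.0426%, with library 1 the highest and library 2 the lowest. MT-CO1, a subunit of cytochrome c oxidase, was the highest of them at 216, 148 and 187 CPM. MT-ND4, a subunit of complex I, followed at 92.8, 54.5 and 71.9 CPM. MT-ATP8 was under 1 CPM in library 2 (1.41, 0.822 and 1.14 CPM). The ribosomal RNA MT-RNR2 had 18.1, 13.1 and 13.1 CPM. The cause of these low values was not tested.

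The cells held keratins of simple epithelium and little of the basal set. KRT7 stood at 983, 901 and 1004 CPM. KRT8 (ENSG00000170421), a marker of the line, stood at 325, 297 and 312 CPM, and its partner KRT18 at 37.4, 38.2 and 37.1 CPM. KRT19 was at 2.69, 1.86 and 1.40 CPM. Of 10 keratins of basal and squamous cells, only KRT15 was expressed in all 3 libraries, at 1.97, 1.29 and 2.02 CPM. KRT5, the basal cell keratin, stood at 0.959, 0.384 and 0.994 CPM, and KRT14 at 0.533, 0.439 and 0.906 CPM. TP63, the master factor of basal cells, stood at 0.320, 0.302 and 0.526 CPM, and SOX2 had no count. Of the 8 basal cell genes, 6 were expressed, led by ITGA6, the laminin receptor chain, at 87.1, 94.7 and 85.5 CPM.

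Of 30 genes of junctions and epithelial control, 20 were expressed, a share of 66.7% near the 61.7% of all coding symbols. Of these, 3 lay above 100 CPM, and the median of the 30 was 2.18 CPM. CTNND1, the catenin that keeps cadherins at the membrane, stood at 188, 199 and 196 CPM. TJP1, a scaffold of tight junctions, stood at 173, 176 and 176 CPM. CDH1 (E-cadherin), the cadherin of epithelia, stood at 1.15, 0.548 and 1.37 CPM and was therefore under the limit in library 2. EPCAM, an epithelial adhesion protein, stood at 0.0533, 0.164 and 0.409 CPM, and the splicing factor ESRP1 at 0.613, 0.219 and 0.497 CPM, while its relative ESRP2 had a mean of 15.2 CPM ± 1.69 (SD, n = 3). Between the extremes lay the desmosome gene DSG2, at 15.6, 16.1 and 13.4 CPM, and the claudin CLDN7, with a mean of 9.77 CPM. DSP, the desmosome protein desmoplakin, was just above the limit at 1.60, 1.26 and 1.49 CPM.

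Genes usual in mesenchymal cells were mostly expressed, 23 of 28, or 82.1%, beside 61.7% of all coding symbols. Their median was 14.9 CPM. FN1, the matrix protein fibronectin, stood at 2258, 2288 and 2325 CPM. LOX, the enzyme that cross-links collagen, stood at 375, 376 and 364 CPM, and SPARC, a matrix glycoprotein, at 308, 311 and 303 CPM. VIM, the intermediate filament vimentin, stood at 230, 253 and 238 CPM, and CDH2 (N-cadherin) at 109, 107 and 102 CPM. In every library CDH2 thus took more counts than CDH1. The transcription factors TWIST1 (62.5, 55.7 and 64.3 CPM) and ZEB1 (mean 47.6 CPM ± 2.24, SD, n = 3) were expressed, and ZEB1 is known to repress CDH1. The muscle actin ACTA2 (0.480, 0.822 and 0.877 CPM) and the matrix protein POSTN (0.373, 0.329 and 0.234 CPM) were not, and COL3A1, a fibrillar collagen chain, was under the limit in library 3, at 1.52, 1.12 and 0.789 CPM. Other collagen chains ranged widely: COL1A1 stood at 15.6, 8.33 and 12.7 CPM, COL6A3 at 17.7, 17.8 and 16.9 CPM and COL6A1 at 307, 273 and 294 CPM.

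Basement membrane genes were all expressed, 18 of 18, with a median of 72.4 CPM. LAMC1 and LAMB1, laminin chains found in most basement membranes, stood at 480, 484 and 479 CPM and at 469, 465 and 469 CPM. COL4A2, a chain of network collagen, stood at 466, 435 and 455 CPM. Chains of the laminin of stratified epithelia took fewer counts: LAMB3 (ENSG00000196878), a marker of the line, stood at 38.8, 38.8 and 41.1 CPM and LAMA3 at 25.9, 24.7 and 27.3 CPM. The 3 libraries of LAMB3 lay within 1.06-fold of each other.

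Of 15 integrin chains and matrix receptors, 14 were expressed, with a median of 60.6 CPM. ITGB1, the shared beta chain of most integrins, stood at 633, 716 and 641 CPM, with library 2 the highest. ITGA3, its partner for laminin, stood at 549, 489 and 532 CPM, with library 2 the lowest. CD44 (ENSG00000026508), the hyaluronan receptor and a marker of the line, stood at 249, 268 and 260 CPM. ITGB6, the beta chain that activates TGF-beta in epithelia, was under the limit at 0.613, 0.658 and 0.760 CPM. The median CV of the 12 with a mean of at least 10 CPM was 5.58%. Among 19 matrix proteases, plasminogen activators and their inhibitors, 16 were expressed. TIMP1, an inhibitor of metalloproteases, stood at 211, 207 and 206 CPM, and MMP14, a metalloprotease of the cell surface, had a mean of 95.7 CPM ± 5.87 (SD, n = 3).

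**Figure D3:**
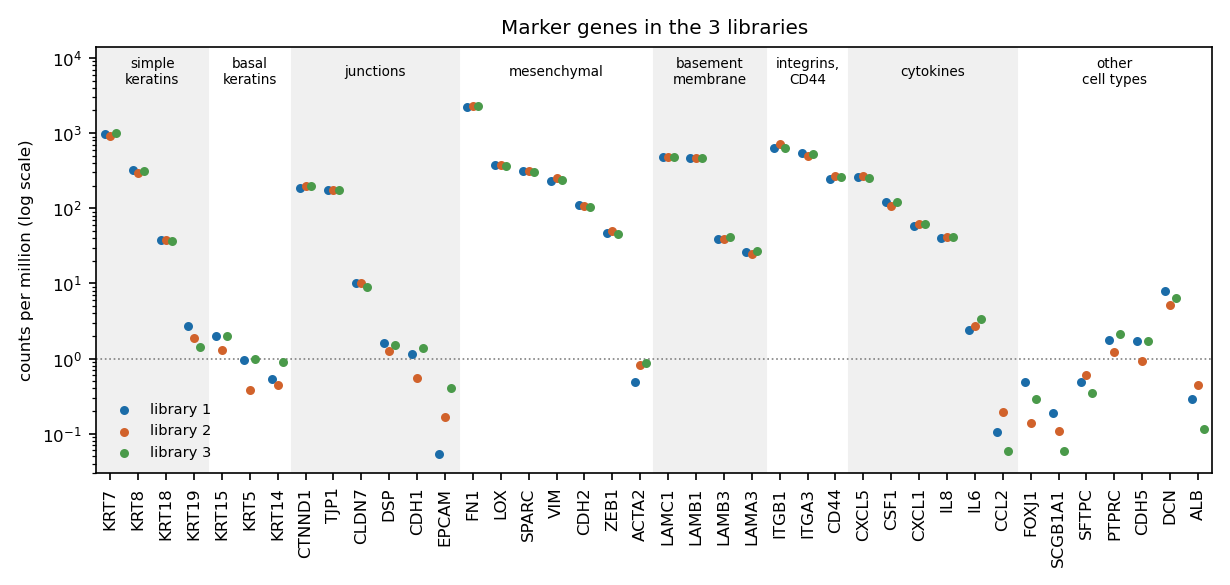
CPM (log scale) of marker genes in the 3 libraries, a point per library, with the groups shaded and the dotted line at 1 CPM. KRT7, FN1, the 4 laminin chains drawn and ITGB1 and ITGA3 lie above 10 CPM, while KRT5, KRT14, EPCAM and the markers FOXJ1, SCGB1A1, SFTPC and ALB lie under the line in all 3 libraries.

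Genes of the cytoskeleton held 1.82% ± 0.0516 (SD, n = 3) of the counts, and 27 of 28 were expressed, with a median of 381 CPM. ACTB and ACTG1, the actins of nonmuscle cells, stood at 2500, 2382 and 2581 CPM and at 1894, 1822 and 1978 CPM. MYH9, a nonmuscle myosin, stood at 2194, 2015 and 2156 CPM, and the actin cross-linker FLNA had a mean of 1280 CPM ± 56.8 (SD, n = 3). The exception was TUBB, a beta tubulin, at 0.0533, 0 and 0.0585 CPM, beside its relatives TUBB4B at 712, 682 and 686 CPM and TUBB6 at 394, 362 and 385 CPM. TUBB lies in the chromosome 6 stretch described below, where most coding genes were listed at 0. Annexins and S100 proteins were led by ANXA2, which binds membranes in the presence of calcium, at 851, 868 and 867 CPM. Of these 21 genes, 16 were expressed, and S100A4, also held to be a mesenchymal gene, stood at 0.746, 0.932 and 0.672 CPM.

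Among secreted signals a neutrophil chemokine took the most counts. CXCL5 (ENSG00000163735), that chemokine and a marker of the line, stood at 257, 273 and 254 CPM. CSF1, the growth factor of macrophages, stood at 120, 108 and 122 CPM, CXCL1 at 57.7, 61.4 and 60.8 CPM and IL8, another neutrophil chemokine, at 40.7, 40.9 and 41.5 CPM. Of the 24 chemokines, interleukins and growth factors, 15 were expressed, or 62.5%, near the 61.7% of all coding symbols. IL6 stood at 2.42, 2.69 and 3.33 CPM. The monocyte chemokine CCL2 (0.107, 0.192 and 0.0585 CPM), the interferon-induced CXCL10 (0, 0.0548 and 0 CPM) and the alarmins TSLP (0.213, 0.576 and 0.438 CPM) and IL33 (0.0799, 0.0548 and 0.0585 CPM) were not expressed.

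Of 19 receptors and adaptors of inflammation, 18 were expressed, with a median of 46.4 CPM. IL6ST, the signal chain shared by IL6, LIF and oncostatin M, stood at 381, 422 and 376 CPM. TLR4, the receptor for bacterial lipopolysaccharide, stood at 108, 125 and 111 CPM, while TLR3, the sensor of double-stranded RNA, stood at 0.107, 0.110 and 0.117 CPM. In the EGF family, 7 of 12 were expressed, or 58.3%, near the 61.7% of all coding symbols. The receptor EGFR stood at 365, 379 and 374 CPM and its ligand EREG at 79.2, 83.7 and 72.8 CPM. EGF itself stood at 0.453, 0.493 and 0.409 CPM. In the TGF-beta family, 16 of 17 were expressed. TGFBI, a matrix protein that TGF-beta induces, stood at 1836, 1804 and 1859 CPM, the receptor TGFBR2 at 476, 483 and 467 CPM, and the ligand TGFB2 at 91.6, 96.7 and 93.3 CPM. INHBB was under the limit at 0.107, 0.164 and 0.292 CPM.

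Genes of DNA replication and mitosis were expressed in 29 of 30 cases, with a median of 133 CPM. TOP2A, the topoisomerase that untangles chromosomes, stood at 774, 841 and 772 CPM. MCM4, a part of the replicative helicase, stood at 693, 715 and 692 CPM, and MKI67, the proliferation marker Ki-67, at 633, 648 and 655 CPM. CCND2, a D cyclin, was the exception, at 1.33, 1.07 and 0.760 CPM, beside CCND1 at 108, 116 and 112 CPM. All 19 genes on the list of p53 and RB pathway genes were expressed. CDKN2A, which encodes the inhibitors p16 and ARF, stood at 388, 346 and 371 CPM, and was the only one above 100 CPM in all 3 libraries. RB1 stood at 94.4, 96.7 and 96.0 CPM, and CDKN1A, which encodes the inhibitor p21, at 29.1, 26.7 and 27.4 CPM.

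Growth regulators known from lung cancer were expressed in 25 of 29 cases, with a median of 48.8 CPM. AXL, a receptor kinase, stood at 1009, 1014 and 1042 CPM. ID1, an inhibitor of differentiation factors, stood at 532, 488 and 511 CPM. MYC, a factor that drives growth, stood at 229, 210 and 229 CPM, while MYCN, its neural relative, stood at 0.293, 0.192 and 0.292 CPM. The kinase receptors KIT (0.853, 0.768 and 1.05 CPM), RET (1.23, 0.576 and 1.14 CPM) and FGFR2 (1.57, 0.850 and 1.14 CPM) were under the limit in at least 1 library.

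All but 1 gene of the machinery in which TAF1C works reached 1 CPM in all 3 libraries. Of the 20 genes of RNA polymerase I, SL1 and their initiation factors, 19 were expressed, with a median of 69.4 CPM. POLR2E and POLR2L, subunits that all nuclear RNA polymerases share, led with means of 182 and 180 CPM. POLR1A, the large catalytic subunit of polymerase I, stood at 159, 154 and 158 CPM. UBTF, the factor that coats ribosomal RNA genes, stood at 158, 154 and 159 CPM. Of the SL1 subunits, TAF1D stood at 110, 128 and 115 CPM, TAF1C at 59.8, 55.0 and 63.4 CPM, TBP at a mean of 21.6 CPM ± 0.996 (SD, n = 3), TAF1B at 18.7, 18.3 and 18.1 CPM and TAF1A at 10.4, 10.9 and 9.27 CPM. ZNRD1, a small subunit of polymerase I, had no count. It lies in the chromosome 6 stretch described below, where 104 of 164 coding genes were listed at 0.

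All 21 genes of glycolysis and glucose uptake were expressed, with a median of 283 CPM, led by ENO1 (enolase) at 2231, 2160 and 2264 CPM and PKM (pyruvate kinase) with a mean of 1477 CPM. All 16 genes of cholesterol synthesis and uptake were expressed, with a median of 53.3 CPM. Of 24 airway detoxifying and antioxidant enzymes, 20 were expressed, with a median of 33.0 CPM. TXNRD1, the thioredoxin reductase, stood at 797, 853 and 811 CPM and GSTP1, a glutathione transferase, at 343, 324 and 353 CPM. AKR1B10, an aldo-keto reductase, stood at 0.0799, 0.0822 and 0.526 CPM. Of 8 metallothioneins, 6 were expressed, led by MT2A, a metal-binding protein, at 310, 301 and 320 CPM. Of 17 chaperones, 15 were expressed, and library 2 was the highest for 11 of these 15, beside 4052 of the 9396 symbols with a mean of at least 10 CPM. It was so for HSP90AA1 at 2254, 2555 and 2297 CPM. The 2 chaperones under the limit were the stress-induced HSPA1A (0.0266, 0.110 and 0.0585 CPM) and HSPA1B (0.187, 0 and 0.0292 CPM). Both lie in the chromosome 6 stretch described below, where most coding genes were listed at 0.

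Of 25 genes of antigen presentation and interferon response, 16 were expressed, or 64%, near the 61.7% of all coding symbols. Their median was 1.86 CPM. B2M, the light chain of MHC class I, stood at 426, 458 and 418 CPM. Its heavy chains were far lower, HLA-C at 1.01, 1.86 and 2.02 CPM and HLA-B at 0.346, 0.658 and 0.380 CPM. TAP1, which carries peptides to them, and the proteasome subunits PSMB8 and PSMB9 had no count. The interferon-induced genes IFIT1 and MX1 had means of 2.38 and 1.58 CPM. Of the 25, 9 lie in the stretch of chromosome 6 described next.

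Genes listed at 0 were not spread evenly along the genome. Coding genes of the table were put in RefSeq order by symbol, with 18935 of 19980 matched, or 94.8%. From TRIM27 to CUTA on chromosome 6, which holds the MHC genes, 104 of 164 coding genes had no count in any of the 3 libraries, or 63.4%, and 5 were expressed. Without the olfactory receptor genes it was 90 of 150. Of the 100 coding genes before TRIM27, 2 were at 0, and of the 100 after CUTA, 2 as well. Over all chromosomes it was 397 of 18935, or 2.10%. This stretch was chosen after the values had been seen.

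The genes at or near 0 there include genes that dividing cells use, such as RPS18, TUBB, DDX39B (0.586, 0.356 and 0.409 CPM), ZNRD1, HSPA1A and HSPA1B, and a 0 is given here only as listed. The few counts inside jumped between libraries. FLOT1, a membrane raft protein, had 0, 269 and 254 counts. CCHCR1, a coiled-coil protein, had 158, 2 and 2 counts, and PRRC2A, an RNA-binding protein, 117, 14 and 8 counts. CUTA, at the edge, had 1052, 45 and 734 counts. Of the genes listed at 0 that belong to a gene group here, 7 of 9 lie in this stretch (AGER, PSMB8, PSMB9, RPS18, TAP1, TNF and ZNRD1), and EEF1G and SOX2 do not. All 14 coding genes from PLCXD1 to ZBED1, in RefSeq order at the tip of the X chromosome, were also at 0. The cause was not tested.

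**Figure D4:**
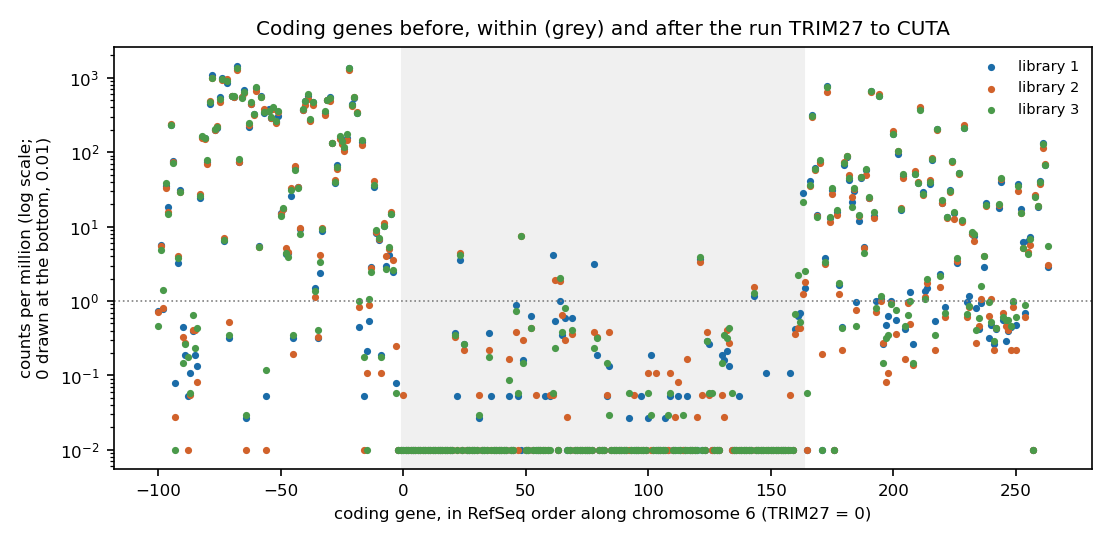
CPM (log scale, 0 drawn at 0.01) of coding genes in RefSeq order along chromosome 6, with TRIM27 at position 0, a point per library, and the stretch TRIM27 to CUTA in grey. Before and after it, 2 of 100 genes are at 0 in all 3 libraries, and within it 104 of 164.

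Markers of other cell types were mostly under the limit, while 61.7% of all coding symbols were expressed. Of 8 ciliated cell genes 3 were expressed, of 9 club and goblet cell genes 2, of 9 alveolar cell genes 2, and of 10 blood cell genes 3. Of 7 endothelial genes 3 were expressed (PECAM1 was not found by symbol), of 12 neuronal genes 3, of 8 muscle genes 2, of 8 hepatocyte genes 2 and of 10 photoreceptor genes 1. More of the fibroblast genes were expressed, 7 of 9, or 77.8%. Their median of 1.74 CPM lay under the 5.29 CPM of all coding symbols, and only 1 of the 9 reached 10 CPM in every library. COL1A1, COL1A2 and COL3A1 of these 9 are on the mesenchymal list too. The defining genes were at or near 0: FOXJ1 of ciliated cells at 0.480, 0.137 and 0.292 CPM, SCGB1A1 of club cells at 0.187, 0.110 and 0.0585 CPM, SFTPC of alveolar cells at 0.480, 0.603 and 0.351 CPM and ALB of hepatocytes at 0.293, 0.439 and 0.117 CPM. The blood marker PTPRC stood at 1.76, 1.21 and 2.10 CPM. Single markers stood out of their groups: MAP2, a microtubule protein of neurons, at 90.1, 95.1 and 88.1 CPM, FBLN1, a matrix protein, at 88.2, 81.7 and 87.3 CPM, SERPINA1, the inhibitor of neutrophil elastase, at 55.0, 55.8 and 53.9 CPM, HBB, a globin, at 22.9, 19.4 and 21.4 CPM, and KDR, a VEGF receptor, at a mean of 19.1 CPM ± 0.787 (SD, n = 3). The sums of these lists lay between 6.03 CPM, for photoreceptors in library 2, and 131 CPM, for fibroblasts in library 1. In bulk RNA, few cells with much of a transcript and many cells with little cannot be told apart.

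The 3 libraries were close to each other. For the 9396 symbols with a mean of at least 10 CPM, the median CV was 4.97%, where counting error alone gives 2.46%, and the middle 50% of symbols lay between 3.15% and 7.35%. The common biological coefficient of variation, which edgeR estimates after counting error is taken off, was 6.58%. The median CV fell from 7.27% at 10 to 20 CPM to 3.40% at 500 to 1000 CPM, was 3.52% above 1000 CPM, and stayed above the counting error in each class of level. Among symbols of at least 100 CPM TPM3, a tropomyosin, had the smallest CV, 0.129%, with 511, 512 and 512 CPM. That lay under its counting error, which was 0.736%.

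**Figure D5:**
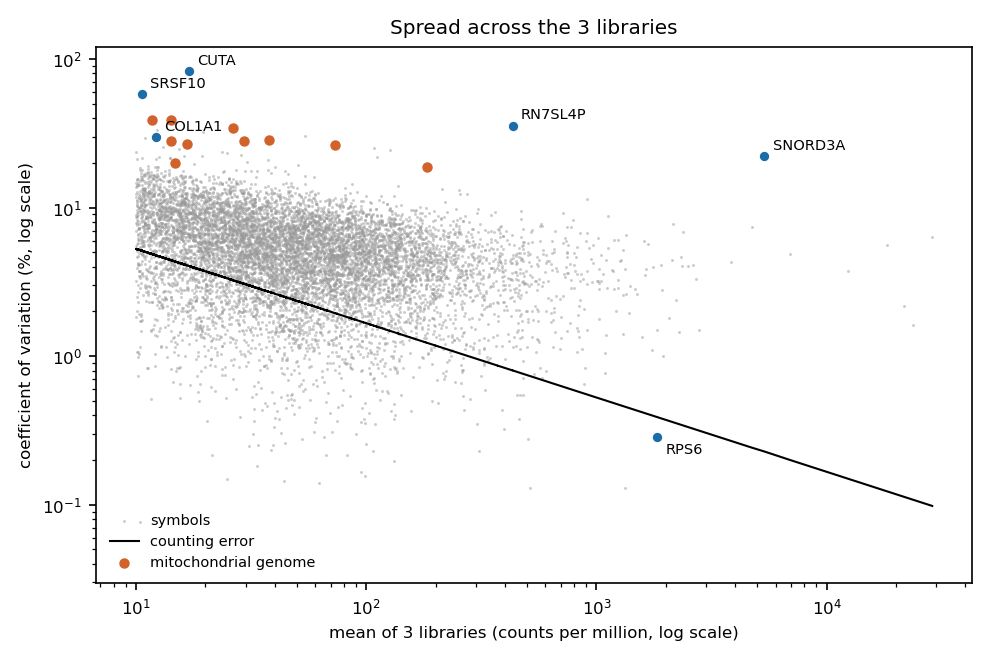
Coefficient of variation across the 3 libraries (%, log scale) against mean CPM (log scale) for the 9396 symbols of at least 10 CPM, with the line that counting error gives. The median CV is 4.97%, and CUTA, SRSF10, RN7SL4P and the transcripts of the mitochondrial genome stand above the cloud.

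Few genes differed between libraries by much. The highest library was over 1.5 times the lowest for 34 of the 9396 symbols, over 1.2 times for 1131 and over 2 times for 5. CUTA, at the edge of the chromosome 6 stretch, had the largest CV, with 28.0, 1.23 and 21.5 CPM. SRSF10, a splicing factor, had 5.97, 8.25 and 17.6 CPM. Transcripts of the mitochondrial genome made up 8 of the 34, and each was highest in library 1 and lowest in library 2, among them MT-ND2 (20.2, 9.37 and 12.9 CPM) and MT-ND1 (15.8, 6.88 and 12.3 CPM), subunits of complex I. The U3 snoRNA genes SNORD3A, SNORD3D and SNORD3B-1 were highest in library 3, SNORD3D at 131, 93.4 and 154 CPM. They are copies of the same RNA, and the handling of reads that fit several of them is not known. Their values may therefore not be separate. COL1A1, a collagen chain, had 15.6, 8.33 and 12.7 CPM, and RN7SL4P, a copy of 7SL RNA, 606, 313 and 379 CPM. The CPM of the 4 markers of the line, KRT8, LAMB3, CXCL5 and CD44, had CVs of 4.53%, 3.26%, 3.77% and 3.82%. The median CV of all symbols was 3.66% at 200 to 500 CPM, where KRT8, CXCL5 and CD44 lie. It was 5.32% at 20 to 50 CPM, where LAMB3 lies.

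Library 2 stood furthest from the others. The SD of the log2 difference between libraries, for symbols of at least 10 CPM, was 0.157 between libraries 1 and 2, 0.150 between 2 and 3, and 0.109 between 1 and 3. Of the 34 variable symbols, 20 were highest in library 1 and lowest in library 2, and 28 were lowest in library 2. Without library 2 the count of variable symbols was 4 and the median CV 2.92%. The count was 14 without library 1 and 26 without library 3, with median CVs of 4.70% and 4.81%. For a symbol, the ratio of highest to lowest over 2 libraries cannot exceed that over 3. These values therefore compare with each other, not with those of all 3 libraries. All 13 mitochondrial mRNAs were highest in library 1, and 12 of 13 lowest in library 2. For the 9 of at least 10 CPM, the median difference of library 2 from the mean of the others was -0.68 on the log2 scale, against 0.01 for all 9396 symbols.

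In other groups library 2 lay above or below the rest, or near them. The fibroblast list, with 3 genes of at least 10 CPM, lay at -0.34 and the simple keratins at -0.10 (3 genes), while junction genes, mesenchymal genes and ribosomal proteins of both subunits lay at -0.01 or nearer to 0. Chaperones lay 0.10 above the other libraries on the log2 scale (median of 15 genes), integrins 0.08 above (12 genes) and receptors of inflammation 0.06 above (15 genes). Basement membrane genes lay lower, at -0.08 (15 genes), as did cytoskeleton genes, at -0.07 (27 genes). The difference moved with the base composition of promoters. Among 7467 coding genes of at least 10 CPM with a RefSeq promoter, the median log2 difference of library 2 fell from 0.04 in the fifth of genes with the lowest promoter GC, up to 57.7%, to -0.03 in the fifth with the highest, from 74.0%. Across these genes, which share their libraries and are not independent, Pearson's r between promoter GC and the log2 difference was -0.15 for library 2, 0.14 for library 1 and 0.06 for library 3. The part of base composition in the library differences was not tested.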

How the data were processed

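Total RNA isolated with the mirVana kit was depleted of ribosomal RNA and made into NEBNext Ultra libraries, per the labels' protocols. The submitters' processing notes list hg19 as the build and, with no role for each, Cufflinks 2.2.1, DESeq2, HISAT2, Bowtie2 2.2.4 and Trimmomatic 0.36. The deposited tables hold the authors' raw counts per Ensembl gene with symbol and biotype, and the annotation, the strand setting and the treatment of reads that fit several genes are not given in the sources used here. Of 57773 rows, 114 gave no biotype, and 236 symbols stood on several rows. Counts were summed by symbol and scaled to CPM by the library totals, 34212883 to 37533366. Groups came from the labels. The empty vector libraries entered only the check of TAF1C, given as values, and no test was run. Expressed means at least 1 CPM in all 3 libraries, and spread was taken over symbols with a mean of at least 10 CPM. The common dispersion came from edgeR 4.0.16 (R 4.3.3) with an intercept alone and TMM factors, after it had been tested on simulated data. Alternatives used TMM and DESeq2 1.42.0 size factors, other limits, tables without mitochondrial and ribosomal RNA genes, unsummed rows and 2 of the 3 libraries. Plots used matplotlib 3.10.9, and tables pandas 2.3.3.

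Named genes are TAF1C, the 4 markers, the 20 coding symbols with most counts, the leading symbols of other biotypes, the leading and unexpressed members of 43 gene lists, and the 15 largest and 10 smallest CVs, printed in part. Further list members and DDX39B fall outside that rule and were named with their values known. A ranking per coding length was planned and not made, as no transcript lengths were used here. Genes named from the stretch on chromosome 6 were picked after their values were seen. The libraries and lists were chosen with earlier results of these data known. Some named genes are not reported here.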

Additional observations from a re-analysis of the deposited data

How the results depend on the processing

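No paired analysis was possible because no result came from a test, and the groups met only in the TAF1C values. Of 52 alternative values, 42 stayed within the limit set for their kind, which was 1.5 times for a count. For shares it was the SD between libraries. For the median CV and the biological coefficient of variation it was the SD of the 3 values with 1 library left out. Those values are among the alternatives. For the TAF1C ratio it was an SD derived from those of the 2 groups. The protein coding share with unsummed rows could not differ, since it was taken from the same rows. The 14634 expressed symbols became 12526 to 20967 under the other limits, scalings and tables, and 14865 to 15131 with 1 library left out. With 1 library left out this count cannot fall, as fewer libraries have to reach the limit. The protein coding share ran from 85.2% to 85.5%, the share of the first 100 symbols from 24.5% to 24.7%, and the symbols that hold 50% of counts from 829 to 834 when 1 library was left out. The spread depended on library 2: with 1 library left out the median CV ran from 2.92% to 4.81%, the count of variable symbols from 4 to 26 and the common biological coefficient of variation from 4.39% to 7.71%, the lowest values being those without library 2. A limit of 1 CPM in place of 10 CPM gave a median CV of 7.05% and 1898 variable symbols, which includes genes of few counts. A limit of 50 CPM gave 7 variable symbols, and a ratio of 2 gave 5. With no filter beyond a count above 0, the biological coefficient of variation was 8.50%. The ratio of mean TAF1C CPM, labelled TAF1C over empty vector, was 0.778 with library totals and 0.943 with TMM factors over the 5 long RNA libraries, an alternative chosen after seeing the data. The cause of that shift was not tested.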
